A study of Caenorhabditis elegans with 2 samples.

Results

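Divergent promoter regions are stretches of DNA that lie between 2 neighbouring protein-coding genes transcribed away from each other, so that 1 short interval holds the upstream sequence of both. They were taken from the annotation alone: the left gene had to be on the minus strand, the right gene on the plus strand, no protein-coding gene could cover any of the bases between them, and their outermost annotated starts could lie at most 1000 bp apart. By this rule 1718 regions were found among 17099 gaps between protein-coding genes on the 6 nuclear chromosomes, and their 3436 flanking genes are 17.2% of the 19973 protein-coding genes. A region was called bound when the summit of a reproducible peak lay between the 2 starts, where reproducible peaks are those of the authors' conservative list. By that definition 135 regions were bound (7.86%).

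The binding of ZTF-28, a zinc finger protein of Caenorhabditis elegans, was measured by chromatin immunoprecipitation and sequencing in whole worms of strain RW12281, in which TY1, EGFP and 3xFLAG tags were inserted by CRISPR at the ztf-28 gene itself (allele st12281). The labels describe precipitation with an antibody against GFP. Both libraries carry the tag and come from young adults at 63 hours, synchronised as larvae starved at the L1 stage after bleaching, and they are labelled as biological replicates 1 and 2. There was no second condition and no control library was analysed here, so bound regions were compared with unbound ones and divergent gaps with other gaps between genes. Whole animals were used, so the values are sums over all their cells, and the depth of each library is unknown because the peak lists hold no read counts.

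In the compact genome of this worm many neighbouring genes start close together on opposite strands. Core promoters set their own direction of transcription, and a pair of divergent genes usually has a pair of separate core promoters with a stretch of accessible DNA between or around them, where sequence-specific factors can bind. The genes of the replication-dependent histones are a known example of divergent pairs. The messenger RNAs of many worm genes lose their first bases when a spliced leader is joined to them, so an annotated start can lie downstream of the true one.

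Sequences of 6 of the 8 bound regions with the highest signal are shown first, since they give the bases under the summits described below. The regions ranked 5 and 7, those of supr-1 with dnj-28 and of his-67 with his-68, are not printed. Each sequence was cut to at most 300 bases around the summit and does not run past either start. Bases are from the RefSeq copy of assembly WBcel235, the sequence of ce11, and are written 5′ to 3′ on the plus strand, with the 21 bases centred on the summit in capitals.

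K01G5.10 and tasp-1, chrIII:10759093-10759306, plus strand: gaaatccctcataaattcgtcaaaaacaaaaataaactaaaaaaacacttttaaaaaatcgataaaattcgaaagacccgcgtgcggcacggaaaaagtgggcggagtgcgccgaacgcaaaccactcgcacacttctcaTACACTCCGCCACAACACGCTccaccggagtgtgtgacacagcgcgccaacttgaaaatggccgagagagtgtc
rpl-15 and K11H12.8, chrIV:654768-655067, plus strand: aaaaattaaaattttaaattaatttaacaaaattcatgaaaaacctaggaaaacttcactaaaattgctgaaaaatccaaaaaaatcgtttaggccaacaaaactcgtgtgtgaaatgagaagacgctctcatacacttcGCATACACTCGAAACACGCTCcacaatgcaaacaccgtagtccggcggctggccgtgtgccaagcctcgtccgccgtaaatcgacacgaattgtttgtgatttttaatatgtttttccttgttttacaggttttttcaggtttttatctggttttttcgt
prp-19 and K10D2.5, chrIII:5172528-5172719, plus strand: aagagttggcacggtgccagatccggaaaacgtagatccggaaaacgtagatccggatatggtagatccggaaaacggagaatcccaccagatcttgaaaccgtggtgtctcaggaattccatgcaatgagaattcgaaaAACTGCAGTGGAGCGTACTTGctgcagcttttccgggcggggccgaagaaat
rps-23 and dpm-3, chrIV:12391154-12391453, plus strand: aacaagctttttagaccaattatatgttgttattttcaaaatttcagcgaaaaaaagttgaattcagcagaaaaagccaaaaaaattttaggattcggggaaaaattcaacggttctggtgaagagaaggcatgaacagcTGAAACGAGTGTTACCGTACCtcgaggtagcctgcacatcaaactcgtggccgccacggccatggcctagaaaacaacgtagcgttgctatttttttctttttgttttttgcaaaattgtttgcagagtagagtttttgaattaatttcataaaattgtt
czw-1 and F20D12.12, chrIV:7946971-7947270, plus strand: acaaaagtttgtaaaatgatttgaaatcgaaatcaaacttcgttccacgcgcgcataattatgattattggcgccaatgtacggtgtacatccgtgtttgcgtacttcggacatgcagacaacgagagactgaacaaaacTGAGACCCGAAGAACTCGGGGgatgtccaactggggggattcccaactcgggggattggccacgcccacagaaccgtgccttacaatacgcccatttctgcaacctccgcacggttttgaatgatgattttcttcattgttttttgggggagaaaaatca
rpl-7A and set-21, chrIV:4390591-4390780, plus strand: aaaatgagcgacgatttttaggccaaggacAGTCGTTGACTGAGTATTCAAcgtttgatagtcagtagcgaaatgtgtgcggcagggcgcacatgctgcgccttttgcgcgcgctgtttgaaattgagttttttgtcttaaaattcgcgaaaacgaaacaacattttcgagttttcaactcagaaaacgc

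The window upstream of tasp-1 ended 1 base before the start of that gene, and G and C made up 47.2% of its bases. The windows at rpl-15 and rps-23 had 36.7% and 36.3%, and those at prp-19, czw-1 and rpl-7A had 50.5%, 46.3% and 43.7%. The base composition and the short motifs of all bound regions are set against unbound ones further on.

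Divergent regions were bound more often than other gaps of at most 1000 bp between protein-coding genes. A summit was present in 135 of 1718 divergent regions (7.86%, 95% Wilson interval 6.68 to 9.23), in 99 of 5551 same-strand gaps of at most 1000 bp (1.78%, 1.47 to 2.17) and in 24 of 1805 convergent gaps (1.33%, 0.895 to 1.97). The difference between divergent and same-strand gaps was 6.07 percentage points (95% Newcombe interval 4.83 to 7.48), a ratio of 4.41. A divergent gap has a gene start at both ends, a same-strand gap at only 1 end and a convergent gap at neither. The shares are per gap, not per start, and how far this accounts for the difference was not tested. The same-strand gaps were also shorter, with a median of 356 bp against 474 bp in the divergent regions. The classes of equal length are compared below. Over all 17099 gaps of any length 3.55% held a summit. Divergent gaps over 1000 bp were bound in 153 of 2493 cases (6.14%), although they are far longer, with a median of 3188 bp. Those of them of at most 2 kb, with a median of 1406 bp, were bound in 46 of 776 cases (5.93%, 4.47 to 7.82). The share in divergent regions of at most 1000 bp was 1.93 percentage points higher than in these. The Newcombe interval of this difference, from -0.297 to 3.93, includes 0. Per length of gap the divergent regions held 162 summits per Mb, against 45.2 in same-strand gaps and 38.5 in convergent gaps. With the authors' thresholded lists of replicate 1 alone and replicate 2 alone, which hold 342 and 411 peaks, 63 and 77 divergent regions were bound (3.67% and 4.48%), and the difference from same-strand gaps was 2.95 and 3.73 points. These intervals cover the counting of regions only. No test was made over regions, which share 1 peak list and are not replicates of a condition.

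The share of regions that were bound changed with the length of the gap and was highest at intermediate lengths. It was 3.66% (9 of 246 regions, 1.94 to 6.81) at gaps of 1 to 200 bp, 8.10% (38 of 469, 5.96 to 10.9) at 201 to 400 bp and 11.5% (45 of 393, 8.67 to 15) at 401 to 600 bp. At 601 to 800 bp it was 9.28% (32 of 345, 6.65 to 12.8), and at 801 to 1000 bp it was 4.15% (11 of 265, 2.33 to 7.28). The intervals of the 3 middle classes overlap, and that of the class of 401 to 600 bp lies above those of the shortest and the longest class. Counted per length of gap, summits were not densest at intermediate lengths. From the shortest class to the longest there were 275, 274, 228, 138 and 50.5 summits per Mb of gap. The class with the highest share was again that of 401 to 600 bp with the thresholded list of replicate 1 alone (5.09%), but that of 601 to 800 bp with the thresholded list of replicate 2 alone (6.09%, against 5.09% in the class below it). Same-strand gaps were bound in a smaller share in every class, at 0.482%, 2.32%, 3.43%, 1.86% and 2.01% in the same order of length. The difference was largest at 401 to 600 bp, at 8.02 percentage points (4.92 to 11.7). At 801 to 1000 bp it was 2.14 points, and its interval, from -0.113 to 5.37, includes 0. Just inside the limit of the rule, at 901 to 1000 bp, 6 of 130 divergent regions were bound (4.62%), and just outside it, at 1001 to 1100 bp, 6 of 97 (6.19%).

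**Figure D1:**
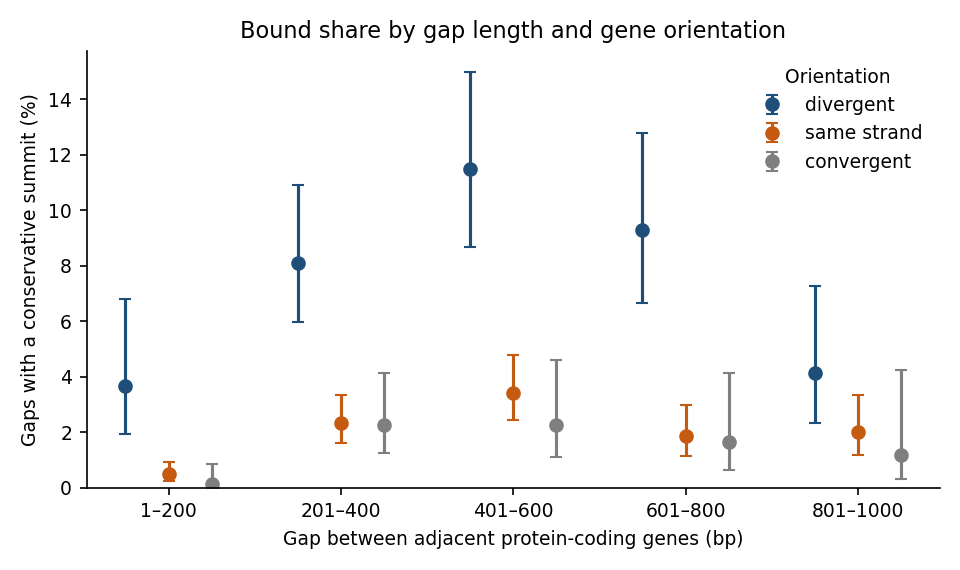
Percent of gaps between adjacent protein-coding genes that hold a summit of the conservative list (vertical axis), by gap length in bp (horizontal axis) and gene orientation. Points are shares and bars are 95% Wilson intervals over regions. Divergent gaps lie above same-strand gaps in each of the 5 classes, with 11.5% against 3.43% at 401 to 600 bp.

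Bound and unbound regions had almost the same median gap, 476 bp against 473 bp, and differed in spread. The middle of the bound regions, from the first to the last quartile, ran from 344.5 to 626 bp, against 265.5 to 700.5 bp for the unbound ones. The shortest bound region, of 92 bp on chromosome IV, lies between ears-2, which encodes a glutamyl-tRNA synthetase, and uncp-18. Its summit lay 20 bp from the start of ears-2 and had a signal of 157.0 in the pooled libraries, 77.4 in replicate 1 and 77.8 in replicate 2. The longest, of 994 bp on chromosome II, lies between B0495.9 and the chemoreceptor gene sre-1. There the summit lay 56 bp from B0495.9 and 938 bp from sre-1, with a signal of 115.7 pooled, 68.8 in replicate 1 and 37.5 in replicate 2. The peak at ears-2 and uncp-18 covers both starts, and that at B0495.9 reaches past the start of this gene.

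The share of summits in divergent regions was far higher in the reproducible list than in the rest of the ranked list. Of 1086 reproducible summits, 137 lay in divergent regions (12.6%, 10.8 to 14.7), against 943 of the other ranked summits (0.924%, 0.868 to 0.985) in a list of 103094 ranked peaks. At least 1 ranked summit was present in 908 divergent regions (52.9%), so that a ranked peak by itself was common. Of the divergent regions that held a ranked summit, the share that was bound stood at 16.4%, 18%, 18% and 14.2% in the 4 classes up to 800 bp and at 6.59% in the class of 801 to 1000 bp. In same-strand gaps with a ranked summit it was between 3.33% and 7.32%. The lower bound share of the shortest divergent regions thus went with fewer ranked summits (22.4% of them held one, against 63.6% at 401 to 600 bp), while that of the longest did not (63.0% held one).

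All summits counted here lie between the starts by definition, and their typical distance from the nearer start was over 100 bp. Over the 137 summits the median distance from the nearer start was 148 bp (quartiles 74 and 222 bp) and from the farther start 301 bp. Within 100 bp of a start lay 44 summits, between 100 and 300 bp lay 85, and 8 were more than 300 bp from both starts. Expressed as a percentage of the gap, where 50% is the centre, the median summit lay 32.6% of the gap away from the nearer start (quartiles 20.3% and 41.6%). For the other ranked summits in the same 1718 regions the median was 26.3% (quartiles 13.2% and 37.7%). The middle part of the gap, at least 33.3% of its length from both starts, itself makes up 33.3% of the gap. It held 66 reproducible summits (48.2%) and 319 of the 943 others (33.8%). This was clearest at gaps of 401 to 600 bp, where the middle part held 29 of 45 reproducible summits (64.4%) and 38.1% of the others. In the class of 801 to 1000 bp the medians were 25.4% (12 summits) and 25.7%. The distance in bp cannot exceed 50% of the gap, so larger values are possible in longer gaps. Its median was 47 bp in the shortest class, 180 bp at 401 to 600 bp, 225 bp at 601 to 800 bp and 214 bp in the longest class. The other ranked summits had medians of 39, 146, 166 and 226 bp in these classes. The plus-strand start was the nearer one for 82 of the 137 reproducible summits and the minus-strand start for 55. For the other ranked summits the minus-strand start was nearer in 456 of 943.

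**Figure D2:**
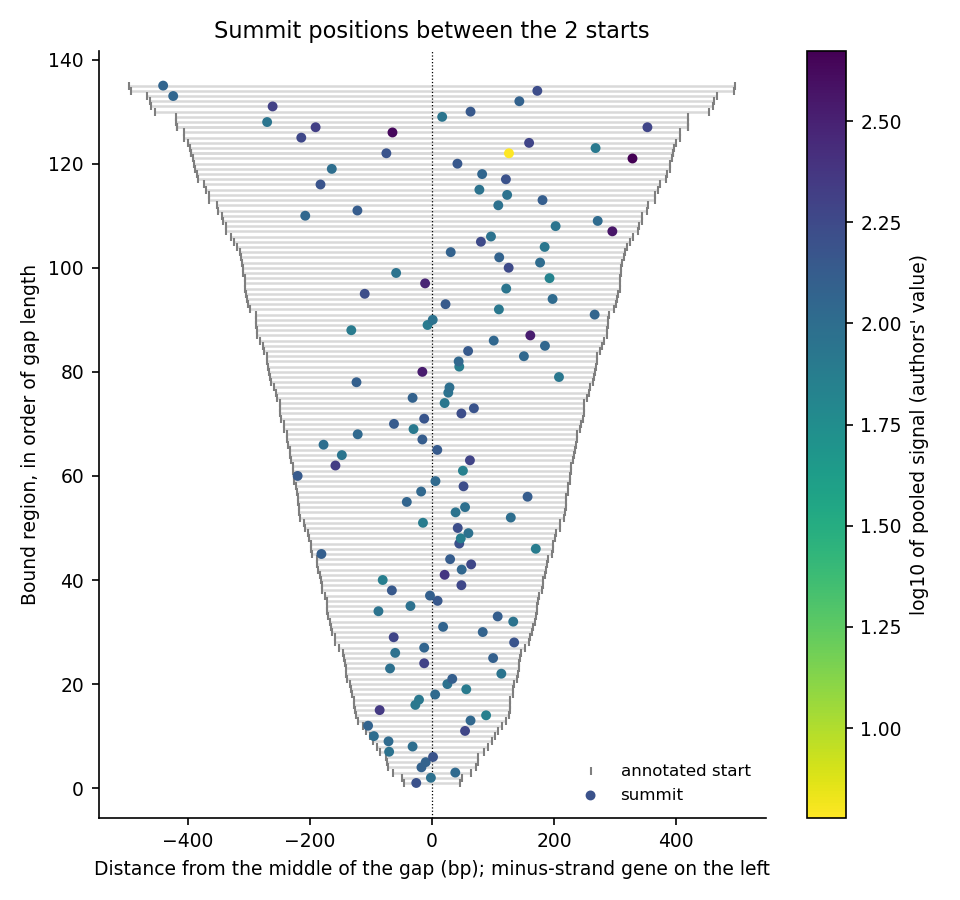
Each grey line is 1 of the 135 bound regions, ordered from the shortest gap at the bottom to the longest at the top, with tick marks at the 2 annotated starts and the minus-strand gene on the left. The horizontal axis is the distance from the middle of the gap in bp, dots are the 137 summits, and their colour is the log10 of the pooled signal. Summits lie a median of 148 bp inside the nearer start.

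A pair of regions held 2 summits each. Between ecps-1 and atx-2, which encodes the worm homologue of ataxin-2, a regulator of translation in the germ line, the gap is 838 bp on chromosome III. One summit lay 228 bp from ecps-1 (signal 208.8 pooled, 102.4 in replicate 1, 101.5 in replicate 2) and the other 66 bp from atx-2 (193.2 pooled, 77.8 and 118.5). The GC content within 100 bases of them was 31.8% and 53.7%. Between F29B9.11 and jmjd-1.2, a histone demethylase gene, the 2 peaks overlap and carry the same replicate values, 50.6 and 106.1, with pooled signals of 152.7 and 6.0. The value of 6.0 is the lowest of the 137.

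Bound regions were found on every autosome, and on the X chromosome none was bound by the conservative list. Chromosome III had the highest share, 35 of 284 regions (12.3%, 9.0 to 16.7), followed by chromosome I with 35 of 318 (11.0%, 8.02 to 14.9), IV with 24 of 303 (7.92%, 5.38 to 11.5) and II with 23 of 315 (7.30%, 4.91 to 10.7). Chromosome V has the most divergent regions, of which 18 of 419 were bound (4.30%, 2.73 to 6.69), and its interval lies below those of I and III and overlaps those of II and IV. On X 0 of 79 were bound, allowing up to 3.8%, against 8.24% on the autosomes (135 of 1639). The X chromosome carried 107 of the 1086 reproducible peaks. With the authors' optimal list, which holds 1137 peaks, 1.27% of the regions on X were bound. With the thresholded list of replicate 1 alone chromosome I had a higher share than III (6.29% and 4.93%). Same-strand gaps of at most 1000 bp showed the same order at its ends: 2.69% were bound on III and 2.66% on I, 0.927% on V and 0 of 509 on X. The median gap was 550 bp on V, 502 bp on X and between 403 and 476 bp on the other chromosomes.

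**Figure D3:**
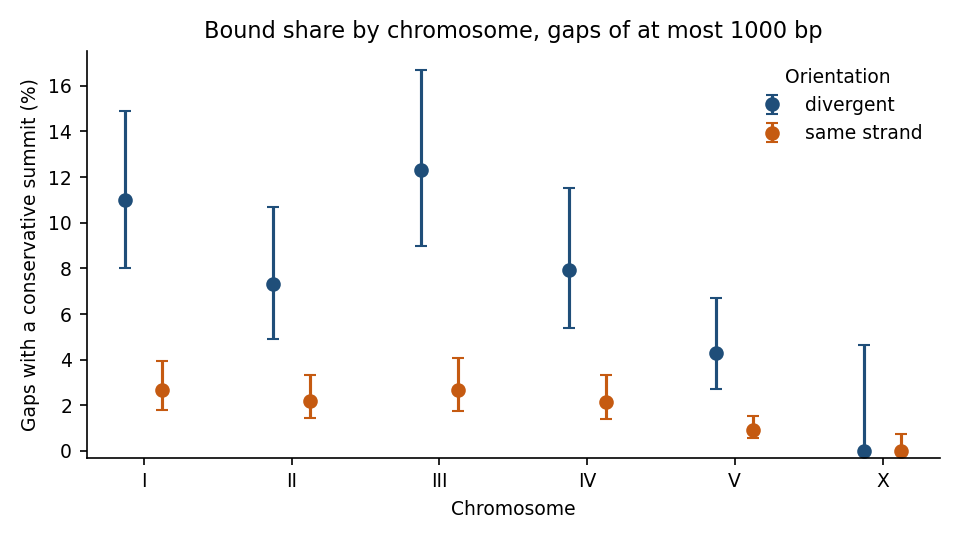
Percent of gaps of at most 1000 bp that hold a conservative summit (vertical axis) on each chromosome, for divergent and same-strand gaps. Points are shares and bars are 95% Wilson intervals over regions. The divergent share runs from 12.3% on III to 4.30% on V, and neither kind of gap was bound on X.

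Signal is the authors' own value per peak, on a scale that the sources used here do not give, and it serves only to order and describe peaks. For each peak the ranked list holds a pooled value and a value from each of the 2 libraries. At 136 of the 137 summits the first of the library values is also the signal of a peak that overlaps it in replicate 1's own ranked list, and at 136 the second is that of one in replicate 2's own ranked list. These ranked lists are not thresholded and are far longer than the thresholded ones of the same libraries. The median pooled signal was 114.8 at divergent regions (quartiles 91.8 and 150.9), 101.3 at the 102 summits in same-strand gaps and 93.7 at the 949 reproducible peaks outside divergent regions. Replicate 1 had medians of 54.8 at divergent regions and 48.0 at the other peaks, and replicate 2 of 61.1 and 48.8. The order was the same in both libraries, and the ranges overlap widely: the highest peak in divergent regions had a pooled signal of 472.2, and the highest elsewhere 549.8. Summits in the longest class had the highest median, 157.1 (12 summits), while the 4 other classes lay between 105.5 and 118.8. Across the 137 summits gap length and pooled signal had a Spearman rho of 0.10, given as a description.

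The replicates were close to each other at most of these summits. The ratio of the replicate 2 value to the replicate 1 value had a median of 1.07 and ran from 0.544 to 2.26. Within 1.5-fold of each other were 110 of the 137 pairs of values, and replicate 2 was higher at 84. The Spearman rho between the libraries was 0.59 and Pearson's r 0.83, as a description of peaks that were selected for high ranks shared by both.

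**Figure D4:**
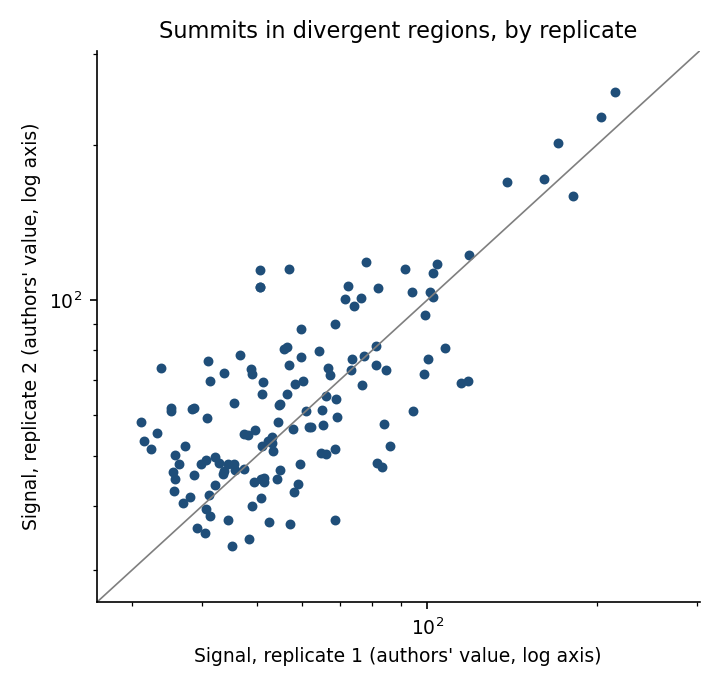
Signal of each of the 137 summits in divergent regions in replicate 1 (horizontal, log axis) and replicate 2 (vertical, log axis), in the authors' units. Each dot is a summit and the grey line marks equal values. Of the dots, 110 lie within 1.5-fold of the line.

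The strongest region lies between K01G5.10 and tasp-1, a taspase-like protease gene, on chromosome III, with starts at 10758522 and 10759307. The summit lay 64 bp from tasp-1 and 721 bp from K01G5.10, and its signal was 472.2 in the pooled libraries, 215.0 in replicate 1 and 253.2 in replicate 2. A like position, close to the plus-strand gene, was seen at prp-19 and K10D2.5, where the summit lay 42 bp from K10D2.5 and 633 bp from prp-19, a gene for a spliceosome-associated ubiquitin ligase (365.9 pooled, 170.7 and 201.8). Other leading regions had their summit near the middle of the gap. At rpl-15, for a protein of the large ribosomal subunit, and K11H12.8 the summit lay 342 bp from the first and 472 bp from the second (430.9 pooled, 202.8 and 225.9). At rps-23, for a protein of the small subunit, and dpm-3, for a subunit of dolichol-phosphate mannose synthase, it lay 251 and 283 bp from the starts (337.8 pooled, 181.2 and 158.8). At czw-1, a kinetochore gene, and F20D12.12 the distances were 296 and 319 bp (307.9 pooled, 138.3 and 169.3).

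The other leading regions included ribosomal, histone and chaperone genes. Between supr-1 and dnj-28, a gene for a DnaJ chaperone, the summit lay 126 bp from dnj-28 with a pooled signal of 332.7 (160.8 and 171.5 in the replicates). The histone genes his-67 and his-68 shared a summit 205 and 164 bp from their starts (241.7 pooled, 118.7 and 122.3). At rpl-7A and set-21, a gene with a SET domain, it lay 41 bp from rpl-7A (224.2 pooled). At tmem-107, which acts at the base of cilia, and rps-26 the summit was nearer to tmem-107, at 70 bp against 387 bp (215.8 pooled). The regions of ecps-1 and atx-2, of Y48B6A.1 and rpl-43 (204.1 pooled) and of F56G4.6 and wbp-4 (200.1 pooled) complete the 12, which lie on all autosomes but V. The strongest region of chromosome V lies between fib-1, for fibrillarin, the methyltransferase that works with box C/D snoRNAs, and mut-15, of the mutator small RNA pathway, with a summit 97 bp from fib-1 (193.5 pooled, 81.8 and 105.4).

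Cytosolic ribosomal protein genes had more bound members than any other of the 22 lists of genes examined. Of 80 such genes 47 (58.8%) flank a divergent region, and 18 of these 47 were bound (38.3%, 25.8 to 52.6), through 17 regions, against 7.86% of all flanking genes. The genes and lists were chosen with earlier results of these data known, so the counts are descriptions. Lists were mostly built from the prefixes of gene symbols, and genes of like function under other symbols are outside them. Of the 270 genes at bound regions 67 (24.8%) are in any of the 22 lists, against 19.6% of all flanking genes. Most genes at bound regions are thus in none of the lists described here and below. The median pooled signal was 150.4, with rpl-15, rps-23 and rpl-7A leading and rps-22 lowest at 78.6. The summit was nearer to the ribosomal protein gene at 9 of the 18 genes and nearer to its partner at the other 9, and its median distance was 266 bp from the ribosomal protein start and 230 bp from the partner's. A region in which both genes are ribosomal lies between rpl-39 and rps-30 on chromosome V (270 and 229 bp from the starts, signal 84.3 pooled, 38.6 and 45.9). Of 25 mitochondrial ribosomal protein genes at divergent regions 0 were bound, allowing up to 12%.

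Protein folding genes followed, with 9 of 28 chaperone genes bound (32.1%, 17.9 to 50.7). Besides dnj-28 these included hsp-60, the mitochondrial chaperonin, whose summit lay 621 bp from its own start and 192 bp from that of Y22D7AL.10 (184.8 pooled, 76.4 and 100.8). They also included 4 subunits of the cytosolic chaperonin, namely cct-8 (176.2), cct-7 (115.7), cct-5 (89.8) and cct-1 (77.1). A region on chromosome III joins hsp-110 and the proteasome gene rpn-3, with the summit 204 and 240 bp from the starts (109.1). Through it 1 of the 20 listed proteasome genes was bound (5.00%, 0.888 to 23.6). Of the listed translation factor genes 3 of 22 were bound (13.6%, 4.75 to 33.3). The intervals of both lists include the 7.86% of all flanking genes. Among the translation factors eif-3.E had a pooled signal of 150.9, the eIF5A gene iff-2 114.0, and eef-1A.1, which shares its region with the clamp loader gene rfc-4, 109.0. Among 10 listed aminoacyl-tRNA synthetase genes 1 was bound, ears-2 (interval 1.79 to 40.4).

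Of the listed splicing factor genes 6 of 29 were bound (20.7%, 9.85 to 38.4, against 7.86% of all flanking genes), through 5 regions. The interval takes the 6 genes as separate although 2 of them share 1 summit, so it is too narrow to set this list apart from 7.86%. After prp-19 came the Sm protein genes snr-1 (167.5 pooled, 50.6 and 114.6) and snr-2 (86.7), prp-40 (86.8) and the SR protein genes rsp-1 and rsp-2, which face away from each other on chromosome II and share a summit 144 and 263 bp from their starts (93.5 pooled, 54.9 and 47.0). The replicate values of snr-1 differ by more than 1.5-fold. In the list of respiratory chain and ATP synthase genes 1 of 23 was bound (4.35%, 0.772 to 21), the ATP synthase gene atp-5 (151.1), and that summit lay 25 bp from its partner lmtr-3 and 294 bp from atp-5. The list lacks some subunits of the respiratory chain: ndua-2, which shares its region with dnj-29 (126.1), and ndub-8, which shares its region with cup-14 (119.1), are complex I genes outside it that were also bound, named after their values were seen. A list of RNA polymerase subunits had 5 genes at divergent regions and 0 bound, which is too few to set against the share of all regions.

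Histone genes are the list most often arranged in divergent regions, with 62 of 80 genes (77.5%), and 8 of the 62 were bound (12.9%, 6.69 to 23.4), through 4 regions that each join 2 histone genes. This interval counts the 2 genes of a region separately, and it includes the 7.86% of all flanking genes. After his-67 and his-68 these were his-61 and his-62 (119.6 pooled, 64.9 and 50.5), his-63 and his-64 (82.6 pooled, 35.2 and 61.1) and his-59 and his-60 (81.8 pooled, 41.2 and 38.3), all 3 on chromosome IV. The copies of these genes are nearly alike, and how reads were shared between them was not tested, so both the bound and the unbound histone regions are uncertain.

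Cell cycle, chromatin and meiosis genes were also among the bound members. In the list of replication and cell cycle genes 5 of 23 were bound (21.7%, 9.66 to 41.9), and at all 5 the summit lay nearer to the listed gene than to its partner, with medians of 135 bp and 426 bp. They were czw-1, rfc-4, the polymerase alpha gene pola-1 (105.2), the GINS subunit gene psf-1 (102.9) and the checkpoint kinase gene bub-1 (91.8). In other lists the summit lay nearer to the listed gene at 3 of 9 bound chaperone genes, 2 of 6 splicing factor genes and 2 of 4 meiosis genes. The list of lin-61 and the DREAM complex, which represses cell cycle and germ line genes, has 9 genes, of which 4 flank a divergent region, and all 4 were bound (95% Wilson interval 51% to 100%). These were the retinoblastoma homologue lin-35 (167.8 pooled, 71.6 and 100.3), lin-53 (138.1), lin-54 (127.6), whose summit lay 15 bp from its partner rpl-12, and lin-61, which shares its region with bub-1. The last of them, lin-61, encodes a chromatin protein that is not a subunit of the complex, and the count of 4 is small. The summit lay nearer to the listed gene at 1 of the 4, lin-35, and nearer to the partner at the others. The summit of lin-61 is the one counted for bub-1 and lay 426 bp from the lin-61 start. Meiosis genes were bound at 4 of 19 (21.1%, 8.51 to 43.3), namely syp-4 of the synaptonemal complex (138.9) and the cohesin genes smc-3 (119.6), coh-4 (109.1) and coh-3 (95.7). Of 10 oocyte and germ granule genes pos-1 (140.1), which shares its region with the vacuolar ATPase gene vha-18, and glh-2, a Vasa-type helicase gene (96.0), were bound (20%), with an interval of 5.67 to 51 that includes 7.86%.

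Other families at divergent regions had few or no bound members. Chemoreceptor genes had 2 of 146 bound (1.37%, 0.376 to 4.86), an interval below the 7.86% of all flanking genes. They were sre-1 and sri-5 (90.4), with B0495.9 and rsr-1 as partners. F-box genes (0 of 78, allowing up to 3.85%) and C-type lectin genes (0 of 53, allowing up to 5.66%) had none. The same held for sperm protein genes (0 of 21, allowing up to 14.3%), homeobox genes (0 of 7) and ztf genes (0 of 2), whose intervals include 7.86%. Nuclear hormone receptors had 2 of 18 bound (interval 3.10 to 32.8), nhr-142 (87.7) and nhr-47 (77.4), the second with its summit 28 bp from its own start. The list of cuticle collagens and body shape genes had 1 of 21 bound (interval 0.846 to 22.7), col-38, through the region it shares with rpl-5 (86.2). Both intervals include 7.86%. Genes that carry a symbol of letters and a number made up 74.8% of the 270 genes at bound regions, 56.8% of the 3166 at unbound regions and 54.6% of all protein-coding genes.

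Unbound regions included some with strong peaks in the ranked list. The highest pooled signal belonged to the region of col-71, a collagen gene, and Y49F6B.2 on chromosome II (95.5 pooled, 24.8 in replicate 1, 74.6 in replicate 2). Its irreproducible discovery rate (IDR, low where a peak ranks high and alike in both replicates) was 0.0343. Next came the region of ran-1, for the Ran GTPase, and dkc-1, for dyskerin (90.1 pooled, 22.8 and 63.2, IDR 0.0629). In both of these regions replicate 2 gave the far higher value. In all, 58 of the 1583 unbound regions (3.66%) held a ranked summit with an IDR of at most 0.05.

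Other annotated genes lay in or across 154 of the divergent regions, and 20 of these were bound (13.0%, 8.57 to 19.2), against 115 of 1564 without one (7.35%, 6.16 to 8.75). The annotation class ncRNA made up most of them, with 17 of 110 regions bound (15.5%, 9.88 to 23.4). Of 4 regions with an snRNA gene 2 were bound, at tim-1 with Y75B8A.23 (149.1) and at H27M09.5 with syp-4, and of 3 with a microRNA gene 2 were bound, at smn-1 with klp-16 (189.1) and at eef-1A.1 with rfc-4. The snoRNA class overlapped 3 regions, the tRNA class 1 and the piRNA class 31, and in each of them the bound count was 0. Their Wilson intervals reach up to 56.1%, 79.3% and 11.0%, and so include the 7.35% of regions without another gene.

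Bound regions were richer in G and C than unbound ones. The median GC content of the bases between the starts was 35.2% in bound regions (quartiles 33.2% and 38.2%) and 32.8% in unbound regions (30.2% and 36.1%), a difference of 2.35 percentage points. The sign was the same in each class of gap length, with differences between 1.48 points at 401 to 600 bp and 3.82 points at 1 to 200 bp (9 bound regions), and on each of the 5 autosomes, between 1.32 and 2.94 points. Regions with less than 30% GC were bound in 2.74% (10 of 365, 1.49 to 4.97), those with 30% to under 35% in 7.38%, those with 35% to under 40% in 11.3% and those with at least 40% in 12.6% (24 of 190, 8.64 to 18.1). On X the median was 34.9%, above that of unbound regions on every autosome. How far the sequencing itself favoured bases rich in G and C was not tested.

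**Figure D5:**
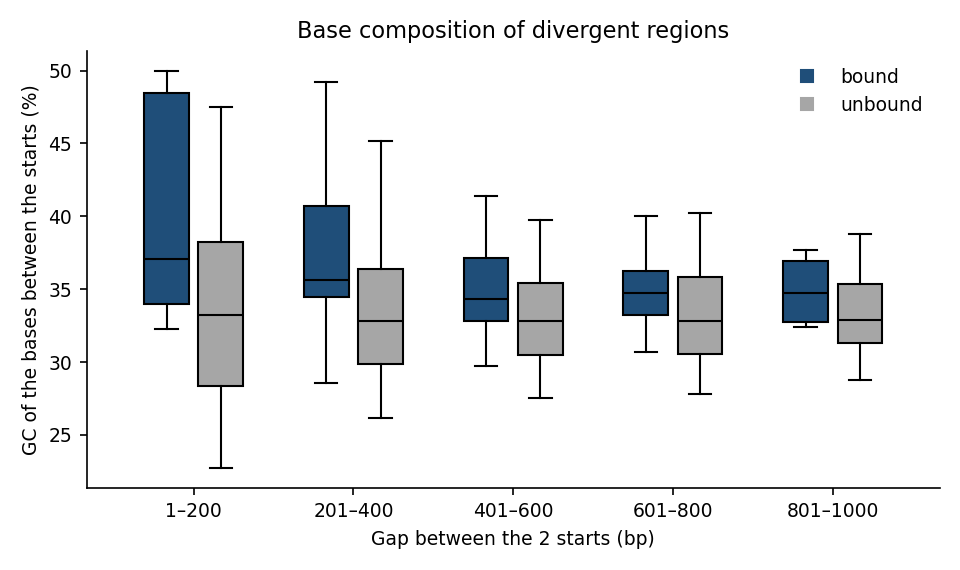
GC content in percent of the bases between the starts (vertical axis) by gap length (horizontal axis), for bound and unbound divergent regions. Boxes span the quartiles, lines are medians and whiskers run from the 5th to the 95th percentile. The bound median is the higher one in each class, by 1.48 to 3.82 percentage points.

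Of the 3 distances measured, GC content was highest at the summit itself. In windows reaching 100 bases to either side of the 137 summits the median GC content was 42.8% (quartiles 38.3% and 47.3%), and in windows of the same length centred 200 bp to either side it was 33.8%, and 400 bp away it was 38.3%. The midpoints of unbound regions had 33.3%, the other ranked summits in divergent regions 36.3%, and reproducible summits in same-strand gaps 43.0%. All 949 reproducible summits outside divergent regions had a median of 46.3%, above that of the divergent regions. The GC content of the summit window and the signal had a Spearman rho of 0.24 for the pooled value, 0.26 in replicate 1 and 0.16 in replicate 2, over 137 summits, a weak relation given as a description.

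Short motifs were looked for in the same windows, on both strands, 10 in all. They were chosen with earlier results of these data known, GCGTCTC among them, so their shares are descriptions and not support for a motif. Each motif was counted by itself, so that overlapping matches count for each of them, and the midpoint windows have the same length. GGGCGG, the core of SP1-type sites, was present in 24 of 137 summit windows (17.5%), against 5.50% of the midpoints of unbound regions and 11.2% of reproducible summits elsewhere. The sequences printed for tasp-1 and prp-19 hold it. GCGTCTC was present in 18 (13.1%), against 3.22% and 6.01%. The E2F-type word TTTCGCGC was present in 10 (7.30%), against 1.71% and 5.27%. TTTCCCGC was present in 5 windows (3.65%, against 1.26% and 3.27%) and TTTGGCGC in 3 (2.19%, against 1.01% and 1.58%). TATAAA went the other way against the midpoints, with 18 windows (13.1%) against 29.1%. It was present at 22.2% of the other ranked summits in divergent regions and at 11.0% of reproducible summits elsewhere. The E-box CACGTG was in 4 windows (2.92% against 4.11%), TTTGAA in 48.2% against 51.7% and TTCGAA in 20.4% against 15.7%. The B box of tRNA genes was in 0 of the 137, and in 13.5% of the reproducible summits elsewhere. The shares were also taken among windows of 40% to under 50% GC. They were 17.3% of 75 bound windows and 13.1% of 222 midpoints for GGGCGG, and 14.7% and 8.11% for GCGTCTC, closer to each other than over all windows. For the E2F-type words they were 8.0% and 1.35% (TTTCGCGC, 6 bound windows), 5.33% and 0.450% (TTTCCCGC, 4) and 4.0% and 0.450% (TTTGGCGC, 3), which were not closer, although they rest on few windows. At reproducible summits elsewhere with that GC content the shares, in the same order, were 4.85%, 2.63% and 1.21%. Each lies between those of the bound windows and the midpoints. In windows of that GC content TATAAA was present in 13.3% of bound windows and 19.8% of midpoints, and TTTGAA was present in 50.7% of bound windows and 27.0% of midpoints. At the other ranked summits in divergent regions TATAAA had 9.44% and TTTGAA 34.8%. At reproducible summits elsewhere they had 10.9% and 35.2%, so the lower share of TATAAA was seen against midpoints only. No motif was present at more than 48.2% of the 137 summits, and a match is a description of the letters only.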

How the data were processed

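Peaks were deposited by the authors as ranked lists and as lists cut at a threshold of the irreproducible discovery rate (IDR), in assembly ce11 per the labels. The aligner and peak caller were not given in the sources used here. The deposited signal of each peak has no stated scale. The ranked lists hold −log10 of the global IDR as the authors wrote it, and the deposited score is 830 or more throughout the conservative list. That list of 1086 peaks was the main set, each peak represented by its summit. Of the ranked peaks, 45 reach that score and are absent from the conservative list, and 0 of them lie in divergent regions.

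Genes came from Ensembl release 115 on WBcel235, the sequence of ce11, and names missing there from RefSeq by WormBase identifier. The gap is the distance between the start bases, and GC content was taken over the bases between them. The members, the 22 gene lists (most of them prefixes of gene symbols) and the 10 motifs were chosen with earlier results of these data known. Regions were named by a written rule: the 12 strongest, the strongest of each chromosome, the shortest and longest, those with 2 summits, up to 3 of each list and the strongest 2 that were unbound. Further list members and the regions with small RNA genes were named after their values were seen. After a first run the symbols of replication protein A were taken out of the list of RNA polymerase subunits, whose bound count is 0, and the histone, collagen and DREAM lists were renamed for what they hold.

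No test over regions was made. Shares have 95% Wilson intervals and differences of shares have Newcombe intervals, and a count of 0 was taken to allow 3 counts. The overlay was tested on simulated summits. The tools were Python 3.11.15 with pandas 2.3.3, NumPy 2.4.6, matplotlib 3.10.9 and SciPy 1.17.1. The alternatives were the optimal list, each replicate's own thresholded list, an IDR of 0.001, gaps of at most 500 bp, regions with no other gene, other starts and other overlap rules, and 1 was added after seeing the data.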

Additional observations from a re-analysis of the deposited data

How the results depend on the processing

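Divergent regions had a higher bound share than same-strand gaps under each of the 11 alternatives, by 2.95 to 7.37 percentage points. Of the recomputed values 71 stayed within the error or the 1.5-fold limit used for them, and 44 moved. None reversed, but only the differences in bound share and in GC content can change sign. With an IDR of at most 0.001, 65 regions were bound (3.78%), the difference from same-strand gaps was 3.21 points, the regions held 22.3% of the summits, the median position was 36.3% of the gap and the median signal 151. With gaps of at most 500 bp, 74 regions were bound, with 6.81% of the summits and a median position of 36.7%. RefSeq starts gave a position of 34.2% and a GC difference of 1.91 points, and starts of coding sequences gave 36.6%, 1.66 points and a median signal of 112. The optimal list gave a median signal of 112, and regions with no other gene a GC difference of 2.15 points.

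The authors' thresholded lists of replicate 1 alone and replicate 2 alone hold 342 and 411 peaks. Leaving out either replicate gave 63 to 77 bound regions (3.67% to 4.48%) and a difference from same-strand gaps of 2.95 to 3.73 points. These regions held 18.7% to 19.5% of the summits, with a position of 31.9% to 33.6% and a GC difference of 1.98 to 2.26 points. The median signal was 73.8 to 76.6, but it is taken from the list of 1 replicate and cannot be set against the pooled signal of the main list. By length the bound share was 1.22% with either list up to 200 bp, 4.05% to 5.33% at 201 to 400 bp, 5.09% with either list at 401 to 600 bp and 3.77% to 6.09% at 601 to 800 bp. By chromosome it was 5.97% to 6.29% on I, 2.86% to 5.08% on II, 4.93% to 7.04% on III, 4.29% to 5.28% on IV and 1.43% to 1.67% on V. Returning the 45 absent peaks, chosen after seeing the data, left the difference from same-strand gaps at 6.07 points. No paired analysis was possible because both libraries belong to 1 group. The lists give no depth, so an unbound region cannot be told from one whose peak the depth did not reach, and annotated starts may lie downstream of the true ones.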

Other observations

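Words of 8 letters, with both strands merged, were counted within 100 bases of each summit after the data had been seen, and those with the largest difference from the midpoints of unbound regions were taken. Such words differ by the way they were picked, so their shares are a description. GCGAGACC was present at 21 of 137 summits in divergent regions (15.3%), against 2.97% of the midpoints of unbound regions, 4.45% of the other ranked summits in divergent regions and 4.74% of reproducible summits elsewhere. CGAGACCC, which overlaps it, was present at 12.4% against 2.78% of the midpoints. ACTCCGCC was present at 14 summits (10.2%), against 1.45% of the midpoints and 1.69% of reproducible summits elsewhere, and it lies in the capitals of the window at tasp-1 shown above.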
